A study of Mus musculus with 4 samples.

Results

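The genes described here are the 39 mouse genes that carry glucose through glycolysis into pyruvate, lactate and glycogen, with the kinases that regulate those steps. They were chosen by name out of 21900 protein-coding genes. No measured value entered the choice, but earlier results of these data were known when it was made. TLE3 regions were given to a gene when it had the nearest transcription start site and that site lay within 50 kb, and 31 of the 39 genes had at least 1 region. TLE3 ChIP-seq, which counts DNA fragments pulled down with an antibody against TLE3, was performed on primary adipocytes from BAT, from eWAT (epididymal fat) and from iWAT (inguinal fat) of male NMRI mice. There was 1 TLE3 library per depot, and 1 input library without antibody that came from iWAT adipocytes. BAT was pooled from interscapular, cervical and axillary fat, and the mice were 4 to 5 weeks old, with 10 to 15 animals per pool. All 4 libraries came from stromal-vascular cells plated for 8 days with insulin (30 nM) and the PPARγ agonist rosiglitazone (1 µM) and then fixed with disuccinimidyl glutarate and formaldehyde. Cultures counted as usable when over 50% of cells had differentiated, so undifferentiated and other stromal cells could be present in each pool. With 1 library per depot there was no replicate check, no p-value was computed, and depot cannot be told apart from library.

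TLE3 is a corepressor of the Groucho family that does not bind DNA by itself and is brought to chromatin by transcription factors. In fat cells it is known as a partner of PPARγ that opposes the thermogenic programme. Glycolysis splits glucose into pyruvate. Pyruvate is then reduced to lactate by lactate dehydrogenase or turned into acetyl-CoA by the pyruvate dehydrogenase complex, which the pyruvate dehydrogenase kinases switch off. White adipocytes draw on this route for glycerol phosphate and fatty acid synthesis, and brown adipocytes also oxidise glucose for heat.

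Of the 96 TLE3 regions near these genes, 6 were annotated as promoter regions, and they lay at Hk3, Ldhb (2 regions), Dlat, Pdk4 and Pgk1. The 250 bases before the RefSeq start site (GRCm38.p6, minus strand in each case, written 5' to 3' along the gene) are shown for Hk3 and Ldhb, whose regions differed between eWAT and iWAT, and for Pdk4, whose promoter region was in all 3 lists. Capitals mark matches to the motifs named below. The deposited regions are in mm9 coordinates, so the promoter regions were not placed on these bases.
Hk3, chr13:55021386-55021635: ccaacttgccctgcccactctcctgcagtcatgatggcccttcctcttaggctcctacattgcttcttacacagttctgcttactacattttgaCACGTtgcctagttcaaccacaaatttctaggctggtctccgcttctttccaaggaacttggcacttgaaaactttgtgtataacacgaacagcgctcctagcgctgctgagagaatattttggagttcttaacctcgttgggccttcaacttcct
Ldhb, chr6:142507958-142508207: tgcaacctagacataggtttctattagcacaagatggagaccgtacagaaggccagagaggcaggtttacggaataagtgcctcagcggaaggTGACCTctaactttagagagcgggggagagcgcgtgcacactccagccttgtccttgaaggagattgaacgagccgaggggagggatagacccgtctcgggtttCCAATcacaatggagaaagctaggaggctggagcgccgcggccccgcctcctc
Pdk4, chr6:5496279-5496528: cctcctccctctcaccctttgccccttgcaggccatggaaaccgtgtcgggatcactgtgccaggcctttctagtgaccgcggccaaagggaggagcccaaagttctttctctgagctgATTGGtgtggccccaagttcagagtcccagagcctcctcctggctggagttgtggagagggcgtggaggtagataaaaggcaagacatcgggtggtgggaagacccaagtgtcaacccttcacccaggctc

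The capitals in Hk3 are the reverse complement of ACGTG, the core of the hypoxia response element, with its first base at position -156 from the start site. In Ldhb they are the reverse complement of AGGTCA, a motif of nuclear receptors, at -157 and a CCAAT box at -53, and in Pdk4 the reverse complement of CCAAT at -131. Both strands of the 250-base windows were searched, and 38 of the 39 genes had a window. ACGTG was in 17 of the 38 (44.7%), among them Hk2, Pfkfb3, Ldha, Pgk1 and Slc2a1, against 16.6% of 27025 promoters. CACGTG, which contains ACGTG, was in 5 (13.2%), against 6.05% of promoters, and the GC box GGGCGG was in 20 (52.6%), against 32.9%. AGGTCA was in 4 (10.5%), against 13.8%, CCAAT in 15 (39.5%), against 34.5%, and the C/EBP motif TTGCNNAA in 3 (7.89%), against 9.55%. The forkhead motif TGTTTAC was in none of the 38 windows, against 3.09% of promoters. The 27025 promoters outnumber the 21900 protein-coding genes, and they were not matched to the 38 windows for base composition. These matches describe the sequence and say nothing of binding in these cells.

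The deposited values are reads per region scaled by the authors to 1 total per library, here called scaled reads. Every value was a whole multiple of what 1 read was worth, which was 2.77 scaled reads in BAT, 0.883 in eWAT, 0.526 in iWAT and 0.651 in the input. If the common total was 10 M reads, the libraries held 3.62 M reads in BAT, 11.3 M in eWAT, 19.0 M in iWAT and 15.4 M in the input. A region at 0 could hold up to 8.30 scaled reads in BAT, against 2.65 in eWAT and 1.58 in iWAT, taking 3 reads as the limit. Each depot had its own list, of 15042 regions in BAT, against 51015 in eWAT and 50456 in iWAT, and each listed region held at least 15 scaled reads and at least 10 times the input. Joined, the lists gave 69599 regions, and each table gives the value of every library in its regions. With a common total of 10 M reads, these regions held 10.1% of the BAT reads, against 26.2% in eWAT and 26.3% in iWAT. Why that share was lower in BAT was not tested. A TLE3 region is no measure of expression, so cell type markers could not check the cells here. Of 8 adipocyte genes, 7 had a listed region in BAT, against 8 in eWAT and 7 in iWAT, and of 7 brown adipocyte genes 4, 6 and 6 had one in the same order. Among protein-coding genes 21.4%, 46% and 42.4% had one within 50 kb.

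TLE3 regions were near more of these genes than of protein-coding genes at large in each depot. In BAT adipocytes 16 of the 39 genes (41.0%) had a listed region, against 21.4% of protein-coding genes. In eWAT adipocytes it was 29 (74.4%), against 46%, and in iWAT adipocytes 27 (69.2%), against 42.4%. The 16 genes of the BAT list were Hk2, Gpi1, Pfkl, Pfkp, Pfkfb3, Pfkfb4, Aldoa, Eno1, Pkm, Ldha, Dlat, Pdk1, Pdk2, Pdk4, Slc16a1 and Gys1, and all 16 were in the eWAT and iWAT lists too. Another 9 were in the eWAT and iWAT lists, 4 in eWAT alone (Slc2a1, Hk3, Gapdh and Pdk3) and 2 in iWAT alone (Pgk1 and Pgam2). The 8 genes with no region were Pfkm, Pfkfb2, Aldoc, Tpi1, Eno2, Eno3, Slc16a3 and Pygm, which include the muscle forms of phosphofructokinase, enolase and glycogen phosphorylase. When each list was limited to its 15042 strongest regions, 16 of these genes (41.0%) had a region for BAT, where 21.4% of protein-coding genes did. For eWAT it was 13 (33.3%), beside 21.7% of protein-coding genes. For iWAT it was 9 (23.1%), beside 19.3%, so the 2 shares lay closest there. Gene length and the spacing of neighbouring genes were not matched in these shares.

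**Figure D1:**
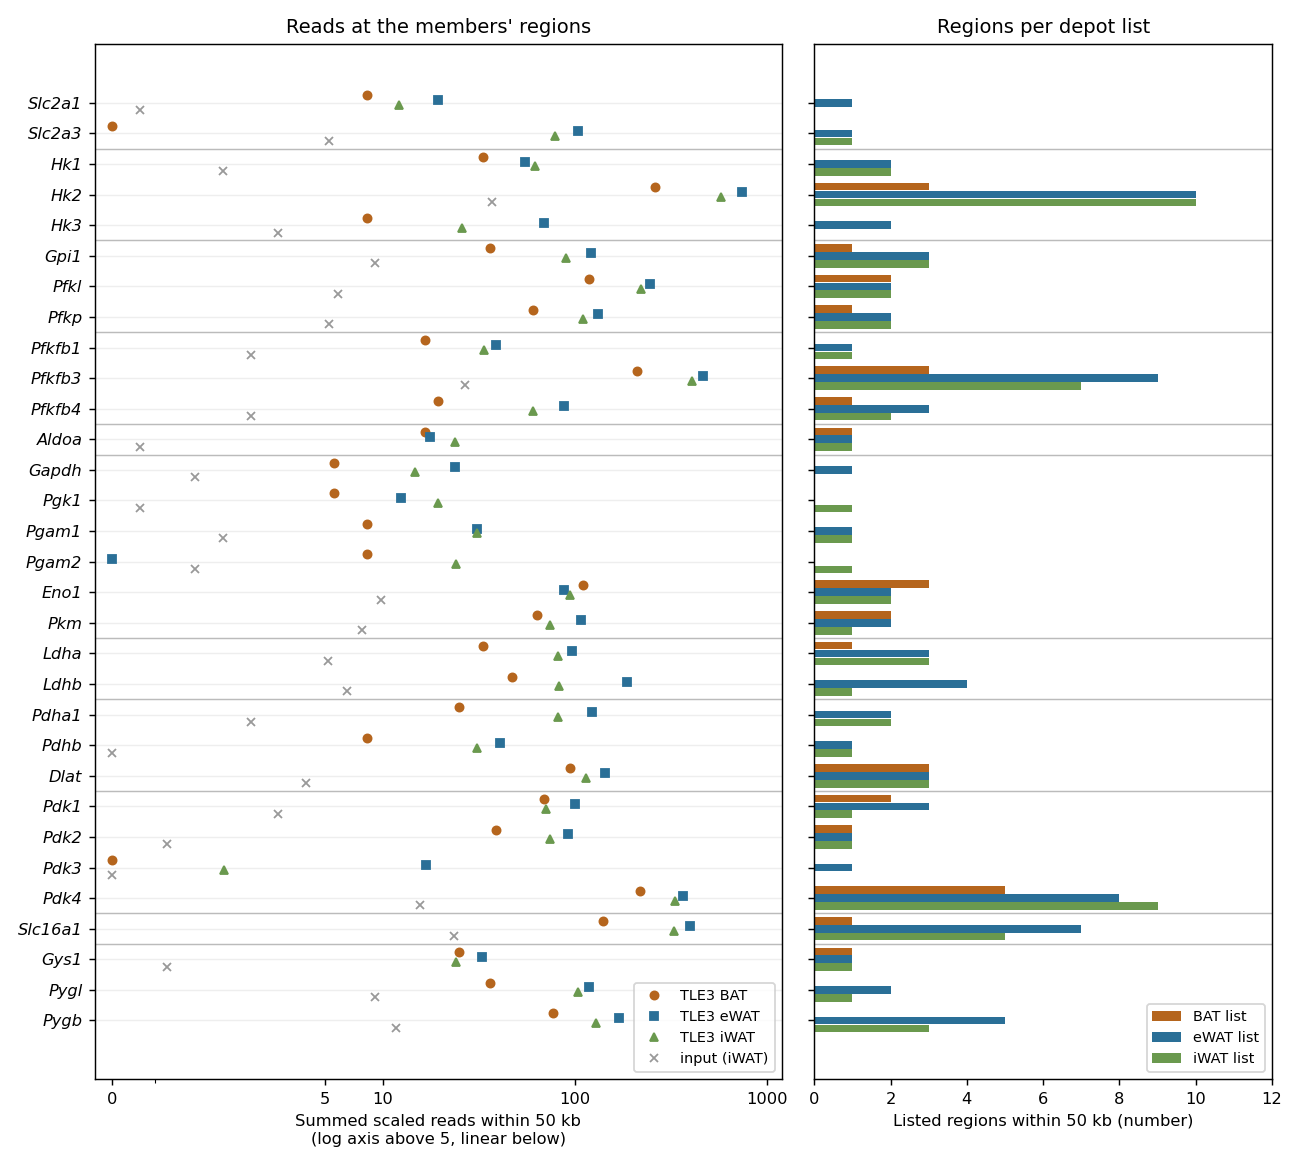
Left, summed scaled reads within 50 kb of each of the 31 genes with a region, on an axis that is logarithmic above 5 and linear below, for the BAT, eWAT and iWAT libraries and the iWAT input (1 library each, so no error bars). Right, the number of listed regions per depot list, drawn as bars from 0. Hk2, Pfkfb3, Pdk4 and Slc16a1 lie farthest right in the left panel, Eno1 is the only gene whose BAT sum is the highest of the 3 TLE3 libraries on this scale, and Slc2a3 is at 0 in BAT.

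The 96 regions were 43 intronic, 42 intergenic, 6 promoter, 2 exonic, 2 in 3' untranslated regions and 1 at a transcription end site, at a median of 14.9 kb from the start site, against 15.5 kb for all 39602 regions within 50 kb of a gene. All 3 lists shared 26 of the 96 (27.1%), against 15.9% of the 39602, while 34 (35.4%, against 33.8%) were in the eWAT and iWAT lists. Of the rest, 23 of the 96 were in eWAT alone (against 25.4% of all regions), 8 in iWAT alone (8.33%, against 18.8%), 4 in BAT alone (4.17%, against 3.52%) and 1 in BAT and eWAT (1.04%, against 1.28%). A region outside the BAT list was not always empty there: 21 of the 65 such regions (32.3%) held 15 or more scaled reads in BAT and fell short of 10 times the input. That share was 12.7% for all regions outside the BAT list. Across the 96 regions the Spearman rho of the values was 0.48 for BAT with eWAT, 0.57 for BAT with iWAT and 0.74 for eWAT with iWAT. These regions share the input filter and the 3 libraries differ in depth, so the coefficients are descriptions only. The eWAT value was above the iWAT value in 67 of the 96 regions (69.8%), against 57.9% of all regions.

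Hk2, Pfkfb3, Pdk4 and Slc16a1, the 4 genes with the highest mean sums, held 38 of the 96 regions. They took 46.1% of the genes' summed scaled reads in BAT (95% Wilson interval 42.3 to 49.9), 46.4% in eWAT (45.0 to 47.9) and 48.3% in iWAT (47.1 to 49.5), beside 48.0% in the input (42.7 to 53.4), whose interval holds the shares of all 3 TLE3 libraries. Intervals here and below cover counting error only, since reads are not independent molecules. Having 8 or more regions was seen in 6.05% of genes with any region, and the median was 2 regions for these genes and 2 for all genes.

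Each of the 2 glucose transporters had 1 region. Slc2a1, the basal transporter GLUT1, had 1 intronic region 17.3 kb into the gene, with 8.30 scaled reads in BAT, 19.4 in eWAT, 12.1 in iWAT and 0.65 in the input. It was in the eWAT list alone. Slc2a3, the high-affinity transporter GLUT3, had 1 intergenic region 16.2 kb upstream (mm9 chr6:122708863-122709093), with 0 scaled reads in BAT, 104 in eWAT, 78.8 in iWAT and 5.21 in the input. The eWAT and iWAT libraries were high there and no BAT read was found. Of the 5028 joined regions with at least 75 scaled reads in both eWAT and iWAT, 21 (0.418%) had no BAT read and the median BAT value was 44.2. That comparison was chosen after the values at Slc2a3 were seen.

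Hk2, the insulin-regulated hexokinase that traps glucose as glucose 6-phosphate, had the largest summed value of these genes in each library: 263 scaled reads in BAT, against 743 in eWAT and 581 in iWAT, with 37.1 in the input. Its 11 regions were 1 intergenic region 23.0 kb upstream and 10 intronic ones along the gene, of which 3 were in the BAT list, 10 in the eWAT list and 10 in the iWAT list. The strongest, in intron 2 at 24.7 kb (mm9 chr6:82699631-82699861), held 33.2 scaled reads in BAT, 108 in eWAT, 108 in iWAT and 3.90 in the input. The 3 regions of the BAT list, at -23.0, 7.57 and 13.5 kb, were also in the eWAT and iWAT lists. At 5 other Hk2 regions the BAT value was 15 or more and fell short of 10 times the input. A region at 50.07 kb upstream lay just outside the window, with 5.53 scaled reads in BAT, against 21.2 in eWAT and 16.8 in iWAT.

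The other hexokinases had fewer regions. Hk1, the form of most tissues, had 2 regions in intron 6, 40.0 and 40.4 kb into the gene, which summed to 33.2 scaled reads in BAT, against 54.8 in eWAT and 62.0 in iWAT, with 2.60 in the input. Hk3, a hexokinase known from myeloid blood cells, had 8.30 scaled reads in BAT, against 68.9 in eWAT and 25.8 in iWAT, with 3.90 in the input. Its promoter region, 42 bp before the start, held 0 scaled reads in BAT, 24.7 in eWAT, 2.10 in iWAT and 1.30 in the input, so that eWAT stood alone. Its other region, in an intron of Uimc1, held 8.30 in BAT, against 44.2 in eWAT and 23.7 in iWAT.

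**Figure D2:**
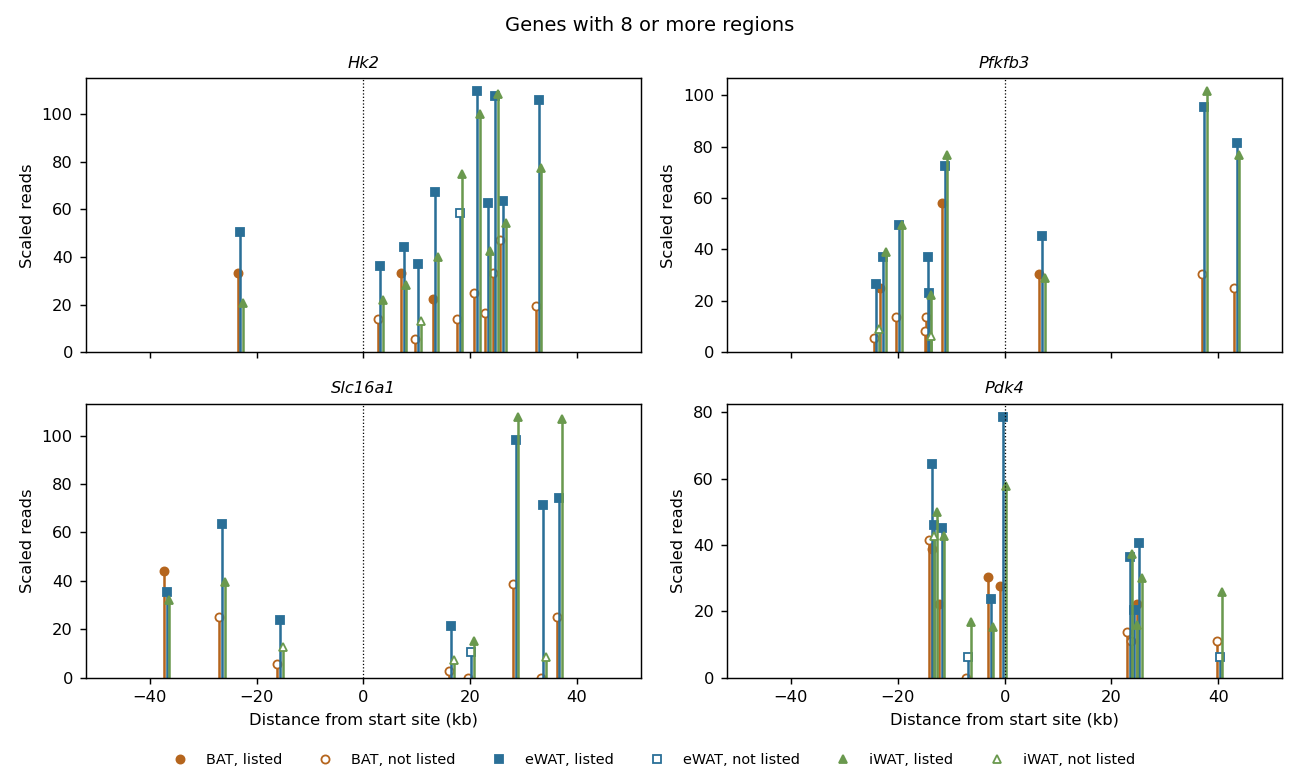
Scaled reads (vertical axis) of each region of Hk2, Pfkfb3, Slc16a1 and Pdk4 against its distance from the start site in kb (horizontal axis, dotted line at 0), for BAT, eWAT and iWAT, 1 library each, drawn slightly offset from left to right. Filled marks are regions in that depot's list and open marks are not; most Hk2 marks lie downstream of the start, the nearest Pdk4 mark is its promoter region, and 1 Slc16a1 region stands high in eWAT only.

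In upper glycolysis, Gpi1, which interconverts glucose and fructose 6-phosphate, summed to 36.0 scaled reads in BAT, against 122 in eWAT and 90.4 in iWAT over 4 regions, with 9.10 in the input. Pfkl, the liver form of phosphofructokinase, the committed step of glycolysis, had 2 intergenic regions 3.11 and 5.84 kb upstream, both in all 3 lists. They summed to 119 scaled reads in BAT, against 247 in eWAT and 221 in iWAT, with 5.86 in the input, and the nearer one was the strongest region of all 39 genes in the mean of the 3 libraries. Pfkp, the platelet form, had 60.8 in BAT, against 132 in eWAT and 110 in iWAT from 2 regions in intron 1. A further 10 regions lay 93.7 to 631 kb upstream of Pfkp, outside the window. The farthest held 2.77 scaled reads in BAT, against 17.7 in eWAT and 124 in iWAT, and another at 616 kb, in all 3 lists, held 33.2 in BAT, against 120 in eWAT and 98.3 in iWAT. Aldoa, the aldolase of muscle and most other tissues, had 1 region 7.08 kb upstream in all 3 lists, with 16.6 scaled reads in BAT, against 17.7 in eWAT and 23.7 in iWAT.

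The bifunctional enzymes that set fructose 2,6-bisphosphate, the activator of phosphofructokinase, had regions at 3 of 4 genes. Pfkfb3, the form with the highest ratio of kinase to phosphatase activity, summed to 210 scaled reads in BAT, against 467 in eWAT and 409 in iWAT over 9 regions, with 26.7 in the input. Of these 9, 3 were in the BAT list, 9 in the eWAT list and 7 in the iWAT list, and 5 lay in intron 1 of the gene. The strongest was intergenic, 37.4 kb downstream of the start (mm9 chr2:11386226-11386456), with 30.4 in BAT, 95.4 in eWAT, 101 in iWAT and 5.86 in the input. Pfkfb4, known from testis, had 19.4 scaled reads in BAT, against 88.3 in eWAT and 60.4 in iWAT, and 3 more regions inside it were assigned to the neighbour Shisa5 and not counted. Pfkfb1, the liver form, had 16.6 in BAT, against 38.9 in eWAT and 33.6 in iWAT at 1 intronic region.

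Lower glycolysis had regions at 6 of 8 genes, 4 of them with 1 region only. Eno1, the enolase of most tissues, was the exception in BAT: its 4 intergenic regions 9.49 to 16.4 kb upstream summed to 111 scaled reads in BAT, against 88.3 in eWAT and 94.1 in iWAT, with 9.75 in the input. The region nearest to the start held 22.1 in BAT, against 7.06 in eWAT and 5.78 in iWAT and was in the BAT list alone. The region at 15.7 kb was also in the BAT list alone, with 33.2 in BAT, against 18.5 in eWAT and 25.2 in iWAT, and the eWAT and iWAT values were under 10 times the input of 2.60. Pkm, pyruvate kinase, the last step of glycolysis, summed to 63.6 in BAT, against 108 in eWAT and 74.1 in iWAT over 3 regions. Its region in intron 1 at 3.64 kb was in the BAT list alone, with 33.2 scaled reads in BAT, against 18.5 in eWAT and 21.6 in iWAT, and the eWAT and iWAT values there fell short of 10 times the input. At Pkm the eWAT library was highest in the sum although BAT was highest at that region.

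The other 4 genes of lower glycolysis had 1 region each. Gapdh, glyceraldehyde 3-phosphate dehydrogenase, had 5.53 scaled reads in BAT, against 23.8 in eWAT and 14.7 in iWAT, in an exon of its neighbour Ncapd2. Pgk1, phosphoglycerate kinase, had 5.53 in BAT, against 12.4 in eWAT and 19.4 in iWAT at a promoter region 576 bp before its start, in the iWAT list alone. Pgam1, the phosphoglycerate mutase of brain and most tissues, had 8.30 in BAT, against 30.9 in eWAT and 31.0 in iWAT. Pgam2, the muscle mutase, had 8.30 in BAT, against 0 in eWAT and 24.2 in iWAT. Of the 38890 joined regions with at least 24 scaled reads in iWAT, 257 (0.661%) had no eWAT read, a comparison also chosen after the value was seen.

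Among the lactate genes, Slc16a1, the lactate and pyruvate carrier MCT1, summed to 141 scaled reads in BAT, against 398 in eWAT and 330 in iWAT over 8 regions, with 23.4 in the input. Only its region 36.8 kb upstream was in the BAT list, with 44.2 in BAT, against 35.3 in eWAT and 32.1 in iWAT. The strongest lay 28.5 kb downstream of the start (mm9 chr3:104470947-104471177), with 38.7 in BAT, 98.0 in eWAT, 108 in iWAT and 6.51 in the input. A region 33.7 kb downstream stood apart, with 0 scaled reads in BAT, 71.5 in eWAT, 8.41 in iWAT and 3.90 in the input. Of the 9506 joined regions with at least 70 scaled reads in eWAT, 137 (1.44%) had under 15 in iWAT, again a comparison made after that value was seen.

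Ldha, the lactate dehydrogenase subunit that favours lactate formation, had 33.2 scaled reads in BAT, against 97.1 in eWAT and 81.5 in iWAT over 3 regions, of which the BAT list held the 1 that lies 6.84 kb upstream. Ldhb, the subunit of oxidative tissues that favours pyruvate, had 47.0 in BAT, against 186 in eWAT and 82.5 in iWAT over 4 regions, with 6.50 in the input. Its promoter region 918 bp before the start was the main one, with 16.6 scaled reads in BAT, 110 in eWAT, 48.9 in iWAT and 2.60 in the input. The second promoter region, 176 bp before the start, held 5.53 in BAT, against 24.7 in eWAT and 7.88 in iWAT. All 4 Ldhb regions were in the eWAT list, 1 was in the iWAT list and 0 were in the BAT list, and the eWAT value was the highest at each.

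The pyruvate dehydrogenase complex had regions at all 3 subunit genes examined. Dlat, its acetyltransferase core, had 3 regions within 3.04 kb of the start, all in all 3 lists, which summed to 94.0 scaled reads in BAT, against 144 in eWAT and 115 in iWAT, with 4.55 in the input. Its promoter region held 27.7 in BAT, against 38.0 in eWAT and 28.4 in iWAT. Pdha1, the catalytic alpha subunit, had 24.9 in BAT, against 123 in eWAT and 81.5 in iWAT at 2 intergenic regions, and neither was in the BAT list. Pdhb, the beta subunit, had 8.30 in BAT, against 40.6 in eWAT and 31.0 in iWAT at 1 region, in an intron of its neighbour Pxk.

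The pyruvate dehydrogenase kinases had regions at all 4 genes, and 8 of their 16 regions were in the BAT list. That list held 31 of the 96 regions (32.3%) and 22.0% of all regions within 50 kb of a gene. Of the 8, 5 were at Pdk4, 2 at Pdk1, 1 at Pdk2 and 0 at Pdk3. Pdk4, the form induced by fasting and by PPAR agonists, summed to 218 scaled reads in BAT, against 367 in eWAT and 334 in iWAT over 10 regions, with 15.6 in the input. Its promoter region 293 bp before the start (mm9 chr6:5446456-5446686), the strongest of the 10, held 27.7 in BAT, 78.6 in eWAT, 57.8 in iWAT and 2.60 in the input. At 2.61 kb upstream the order was different, with 30.4 in BAT, against 23.8 in eWAT and 15.2 in iWAT. Pdk1, known as a target of hypoxia signalling, had 69.1 in BAT, against 101 in eWAT and 70.9 in iWAT over 4 regions. Its 2 regions of the BAT list had the highest scaled value in BAT: 36.0 in BAT, against 20.3 in eWAT and 12.6 in iWAT in intron 8, and 22.1 in BAT, against 10.6 in eWAT and 13.7 in iWAT in the 3' untranslated region. The Pdk1 region 46.4 kb downstream had the reverse order, with 8.30 in BAT, against 52.1 in eWAT and 41.5 in iWAT. Pdk2, the broadly expressed kinase, had 38.7 in BAT, against 92.7 in eWAT and 74.1 in iWAT at 1 region in intron 2, in all 3 lists. Pdk3 had 0 in BAT, against 16.8 in eWAT and 2.63 in iWAT at 1 region 45.7 kb upstream.

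For glycogen, Gys1, the glycogen synthase of muscle and fat, had 1 intronic region in all 3 lists, with 24.9 scaled reads in BAT, against 32.7 in eWAT and 24.2 in iWAT. Pygb, the brain phosphorylase, had 77.4 in BAT, against 170 in eWAT and 129 in iWAT over 6 regions, and Pygl, the liver phosphorylase, had 36.0 in BAT, against 118 in eWAT and 104 in iWAT at 2 intronic regions. No region of either phosphorylase gene was in the BAT list.

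Because the BAT library gave fewer scaled reads at most regions, depots were compared relative to the median gene, over the 9100 genes whose values in the 3 TLE3 libraries averaged 30 or more, of which 21 were from the 39. The median gene had a log2 ratio of -1.54 for BAT over eWAT, -1.49 for BAT over iWAT and 0.16 for eWAT over iWAT on the authors' scale. A gene was called when its ratio was at least 1.5-fold from the median gene and its 95% Clopper-Pearson interval lay on 1 side of it. BAT over eWAT and BAT over iWAT share the BAT library, so they are not independent.

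For BAT over eWAT, 5 of the 21 genes were called higher, against 18.3% of all 9100 genes, and 1 lower, against 15.8%. The median of the 21 log2 ratios was 0.28, against 0.00 for all genes. Eno1 was highest, 3.64-fold above the median gene (log2 1.86, 95% interval 1.30 to 2.41), and its log2 ratio on the authors' own scale was 0.32, below the threshold. The other 4 genes were Pdk1, with log2 1.00 (0.31 to 1.63), Dlat, with 0.92 (0.34 to 1.46), Pdk4, with 0.79 (0.42 to 1.14), and Pkm, with 0.78 (0.07 to 1.43). These 4 turned negative on the authors' scale, at -0.54 for Pdk1, -0.61 for Dlat, -0.75 for Pdk4 and -0.76 for Pkm. Slc2a3, with no BAT read, was 4.33-fold lower in BAT than in eWAT relative to the median gene when 3 reads were put for 0. That value is log2 -2.11, and its 95% interval had no lower end and an upper end of -1.79. Slc2a3 passed the filter on the mean only through its eWAT and iWAT values.

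For BAT over iWAT, 7 of the 21 genes were called higher, against 21.8% of all genes, and 1 lower, against 15.5%. The median of the 21 was 0.55, against 0.00 for all genes. Eno1 again led with 3.30-fold (log2 1.72, 1.19 to 2.22; 0.23 on the authors' scale). Pdk1 followed with 1.45 (0.77 to 2.07), Pkm with 1.27 (0.56 to 1.91), Dlat with 1.20 (0.63 to 1.72), Pdk4 with 0.88 (0.52 to 1.22), Pygb with 0.75 (0.13 to 1.32) and Pfkl with 0.60 (0.11 to 1.05). These 6 were negative on the authors' scale, between -0.04 for Pdk1 and -0.89 for Pfkl. Slc2a3 was 3.39-fold lower in BAT than in iWAT relative to the median gene when 3 reads were put for 0. That value is log2 -1.76, and its interval had no lower end and an upper end of -1.44.

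The choice of scaling decided how many genes were called in the BAT comparisons, for these genes as for all genes. On the authors' scale, for BAT over eWAT, 0 of the 21 genes were called higher (1.36% of all genes) and 18 lower (81.6% of all genes), and for BAT over iWAT 0 higher (1.73%) and 17 lower (78.1%), which is near the share of all genes. Relative to the regions that all 3 lists share, BAT over eWAT gave 1 higher (Eno1; 4.8% of all genes) and 9 lower (49.3%), and BAT over iWAT gave 1 higher (Eno1; 5.49%) and 3 lower (49.8%). Relative to all joined regions, BAT over eWAT gave 9 higher (28% of all genes) and 1 lower (9.37%), and BAT over iWAT gave 14 higher (35.6%) and 1 lower (5.65%). Slc2a3 was called lower in BAT under all 5 scalings, as were 9.37% of all genes against eWAT and 5.65% against iWAT. Eno1 was called higher in BAT under the 4 scalings other than the authors', as were 4.80% of all genes against eWAT and 5.49% against iWAT.

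**Figure D3:**
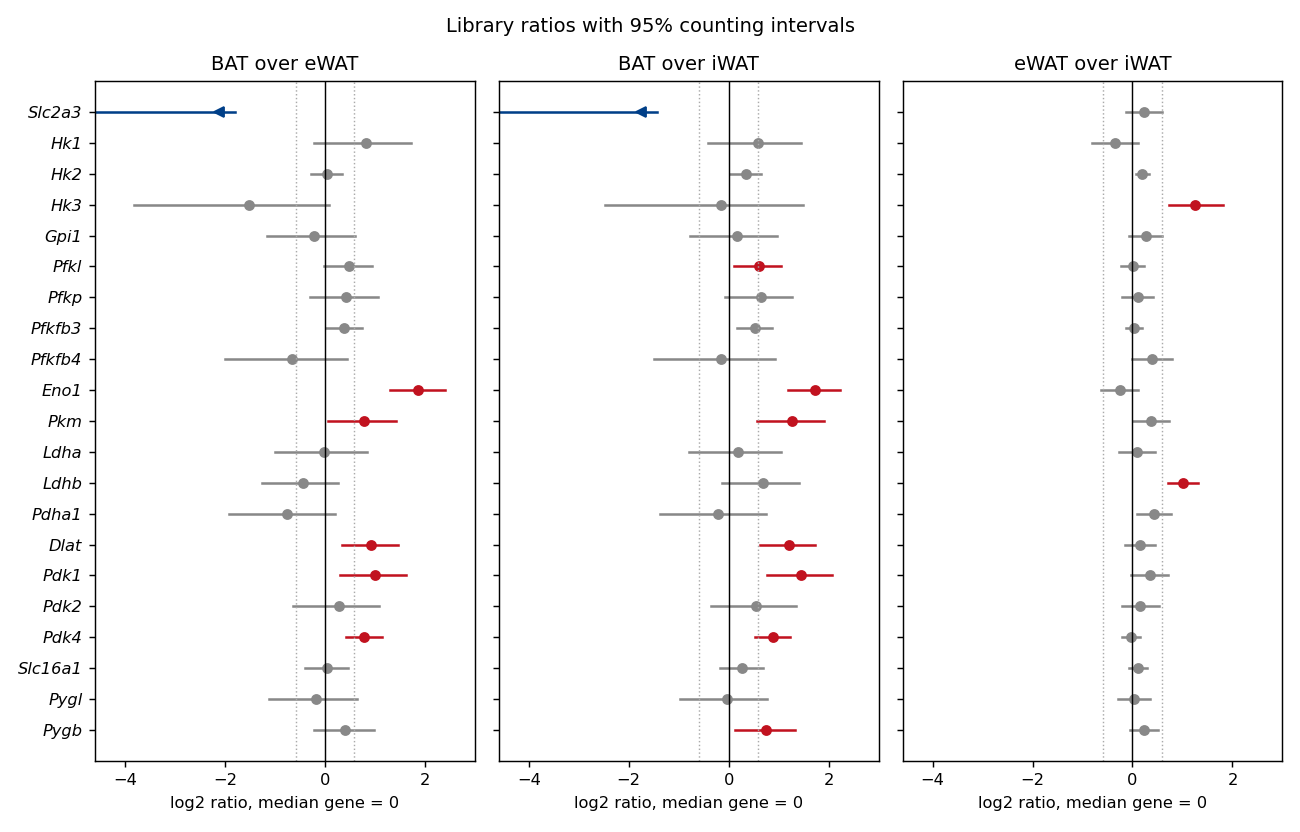
Log2 ratio of summed scaled reads (horizontal axis, 0 is the median gene) for the 21 genes that averaged 30 or more scaled reads, for BAT over eWAT, BAT over iWAT and eWAT over iWAT, with bars for 95% Clopper-Pearson intervals of the reads and dotted lines at 1.5-fold. Red marks were called higher and blue lower, and arrowheads are values with 3 reads put for 0. The red marks in the BAT panels other than Eno1 turn negative on the authors' own scale, where Eno1 is no longer called.

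For eWAT over iWAT, 2 of the 21 genes were called higher, against 14.9% of all genes, and 0 lower, against 19.2%. The median of the 21 was 0.16, against 0.00 for all genes. The 2 genes were Hk3, 2.39-fold above the median gene (log2 1.26, 0.72 to 1.80), and Ldhb, 2.02-fold above it (log2 1.01, 0.71 to 1.32). Both were called under all 5 scalings, as were 14.9% of all genes. This had to follow and is no further check. Every other scaling expects a lower eWAT over iWAT ratio than the median gene, so each gene called higher stays called. Hk3 passed the filter through its eWAT value alone, since its sums in BAT and iWAT lay below 30. On the authors' scale 3 of the 21 were called higher (22.1% of all genes) and 0 lower (14.4%). With no p-value and no replicate there is no second test of the 0 genes called lower, and 0 of the 21 intervals lay below the median gene, against 30.8% of all genes. Pfkl, Pfkfb3 and Pdk4 lay closest to the median gene, with log2 ratios of 0.00 (-0.22 to 0.22), 0.03 (-0.14 to 0.19) and -0.02 (-0.21 to 0.16).

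Of 6 macrophage genes, 0 had a listed region in BAT (21.4% of protein-coding genes had one), against 5 in eWAT (46%) and 2 in iWAT (42.4%). Of 6 skeletal muscle genes, 0, 4 and 2 had one in the same order. The sums of the 5 macrophage genes with any region were 0 to 22.1 scaled reads in BAT, 42.4 to 145 in eWAT and 7.36 to 81.5 in iWAT. Adgre1, which encodes F4/80, was at 0 in BAT and had 42.4 in eWAT and 7.36 in iWAT, and Cd68 had no region. For eWAT over iWAT, 3 macrophage genes passed the filter and all 3 were called higher, against 14.9% of all genes. Their log2 ratios relative to the median gene were 1.76 for Cd14, 0.74 for Csf1r and 0.67 for Ptprc. Cd14 passed the filter through its eWAT value alone, with 102 in eWAT, against 19.4 in BAT and 26.8 in iWAT. Of 5 fibroblast genes that passed the filter, 3 were called lower for eWAT over iWAT (19.2% of all genes) and 0 higher. The 3 were Thy1, with log2 -2.16, Lum, with -1.54, and Col1a2, with -1.03. Of 3 endothelial genes that passed it, 0 were called higher or lower. Whether macrophages in the cultures account for part of the Hk3 values was not tested.

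**Figure D4:**
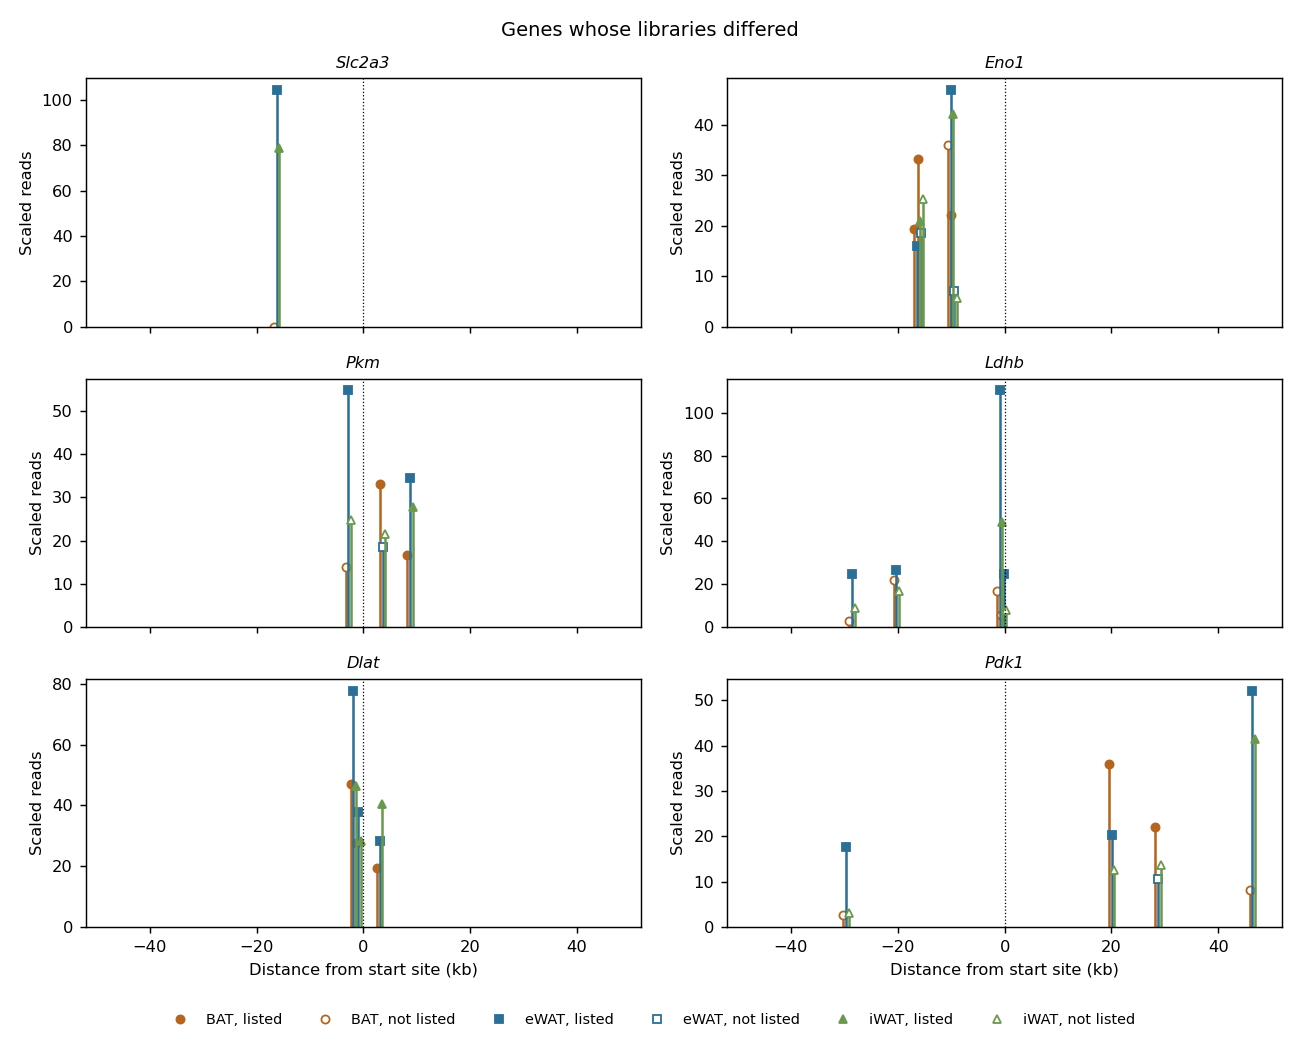
Scaled reads (vertical axis) of each region of Slc2a3, Eno1, Pkm, Ldhb, Dlat and Pdk1 against its distance from the start site in kb (horizontal axis, dotted line at 0), for BAT, eWAT and iWAT, 1 library each, drawn slightly offset from left to right. Filled marks are regions in that depot's list and open marks are not; the single Slc2a3 region is at 0 in BAT, the Eno1 regions cluster 9.49 to 16.4 kb upstream, and the tallest Ldhb mark is its eWAT promoter value.

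A wider list of 59 genes of glucose handling, gluconeogenesis, glycogen and their regulators, none of them among the 39, gave a comparison. Of the 59, 44 had a region, 25 with a listed region in BAT, against 41 in eWAT and 41 in iWAT. The shares of protein-coding genes with one were 21.4%, 46% and 42.4% in the same order. Of the 41 that passed the mean filter, 6 were called higher (18.3% of all genes) and 3 lower (15.8%) for BAT over eWAT. For BAT over iWAT 8 were higher (21.8%) and 7 lower (15.5%), and for eWAT over iWAT 3 higher (14.9%) and 4 lower (19.2%). Slc2a4, the insulin-responsive transporter GLUT4, had 1 region, with 16.6 scaled reads in BAT, against 75.9 in eWAT and 55.7 in iWAT. Pcx, pyruvate carboxylase, had as many regions as Hk2, 11, with 210 in BAT, against 451 in eWAT and 452 in iWAT. Bsg, the chaperone that carries MCT1 to the membrane, had 41.5 in BAT, against 24.7 in eWAT and 24.7 in iWAT at 1 region of the BAT list. Bsg was among the 6 genes called higher for BAT over eWAT. The 3 called lower were Ldhd, with log2 -0.99, Pck1, with -1.39, and Phkb, with -1.89.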

How the data were processed

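The deposited tables list TLE3 regions of 230 bp with an annotation, the nearest start site and a value per library, per the file headers. The values are a signal, reads scaled by the authors to 1 total per library. STAR, HOMER and mm9 are named, without role, per the submitters' processing notes; peak calling and its control are not given in the sources used here. The deposited peak score is 0 throughout, with its making not stated per the file headers, and was not used. The 3 tables were joined by region (69599), scaled reads were summed per gene within 50 kb, and each sum was divided by what 1 read was worth (100% of values came out whole within 0.1 read). Ratios were taken relative to the median gene with exact Clopper-Pearson 95% intervals, and 0 reads were set to 3; the procedure was tested on simulated data. Alternatives changed the scaling, window, filters, lists and fold. The gene list fixed for naming covers all 39 genes, with the strongest and the promoter region of each; other regions were named after their values were seen. The genes, lists and rules were chosen with earlier results of these data known. Promoter sequences and gene types are from RefSeq (GRCm38.p6), and coordinates were not converted. Python 3.11.15, pandas 2.3.3, scipy 1.17.1 and matplotlib 3.10.9 were used.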

Additional observations from a re-analysis of the deposited data

How the results depend on the processing

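Ratios involving BAT followed the scaling. On the authors' scale the median log2 ratio of the 21 genes was -1.26 for BAT over eWAT (0 genes higher, 18 lower), beside -1.54 for all genes (81.6% lower). For BAT over iWAT it was -0.94 (0 higher, 17 lower), beside -1.49 (78.1% lower), and for eWAT over iWAT 0.32, beside 0.16. Relative to the regions shared by all 3 lists it was -0.51 for BAT over eWAT (1 higher, 9 lower), beside -0.79 (49.3% lower), and -0.27 for BAT over iWAT (1 higher, 3 lower), beside -0.82 (49.8% lower). Relative to all regions it was 0.55 (9 higher), beside 0.28 (28.0% higher), and 1.00 (14 higher), beside 0.45 (35.6% higher), in the same order. Relative to the strongest 25% of regions, 2 genes were lower for BAT over eWAT, beside 19.5% of all genes. Of single genes called higher for BAT over eWAT, the log2 ratio reversed on the authors' scale for Dlat (-0.61), Pdk1 (-0.54), Pdk4 (-0.75) and Pkm (-0.76), and relative to the shared regions for Pdk4 (-0.0042) and Pkm (-0.015). For BAT over iWAT it reversed on the authors' scale for Dlat (-0.29), Pdk1 (-0.037), Pdk4 (-0.61), Pfkl (-0.89), Pkm (-0.22) and Pygb (-0.74), relative to the shared regions for Pfkl (-0.23) and Pygb (-0.076), and within 10 kb for Pygb (-0.22).

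Within 10 kb, 2 of 14 genes were higher for BAT over eWAT, beside 18.8% of all genes. For BAT over iWAT 0 were lower, beside 14.4%, since the Slc2a3 region lies farther away. TLE3 over input within 10 kb was 11.0 in BAT (8.44 within 50 kb), 23.6 in eWAT (19.9) and 18.3 in iWAT (16.0). The input came from iWAT, and each listed region held at least 10 times that input, so these ratios are descriptions only. Of the 96 regions within 50 kb, 31 were in the BAT list. With no filter on the mean, 8 of 31 genes were higher for BAT over eWAT, beside 19.3% of all genes. For eWAT over iWAT 1 of 31 was lower, beside 22.0%. With a mean of at least 100, which left 9 of these genes, BAT over eWAT gave 2 higher (18.4% of all genes) and 0 lower (18.1%). BAT over iWAT gave 3 higher (21.7%) and 0 lower (20.1%), and eWAT over iWAT 1 higher (9.39%). With input subtracted, 2 of 21 genes were lower for BAT over eWAT, beside 17.0% of all genes. At 2-fold, BAT over eWAT gave 1 of 21 genes higher, beside 11.4% of all genes, and BAT over iWAT gave 4, beside 14.1%. With lists of equal size, 13 genes had a listed region in eWAT and 9 in iWAT. An alternative chosen after seeing the data, any region of at least 15 scaled reads whatever the input, gave 22 genes for BAT (27.1% of all genes had one), 29 for eWAT (46.9%) and 28 for iWAT (44.4%). The cause of these shifts was not tested beyond what each setting changes by construction. No paired analysis was possible because each depot has 1 library, and for the same reason no library could be left out. Depth limits BAT most, where 1 read is 2.77 scaled reads, and the joined regions also held a smaller share of the BAT reads.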
